A study of Mus musculus with 19 samples.

Results

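Cytosolic ribosomal protein genes encode the proteins of the ribosome that translates nuclear-encoded mRNA. The large subunit forms peptide bonds and the small subunit reads the mRNA, and each ribosome holds 1 copy of most of these proteins. Their mRNAs are among the most abundant of any cell. In vertebrates they begin with a C followed by an unbroken run of pyrimidines, the 5′ terminal oligopyrimidine (TOP) motif, through which their translation responds to the kinase MTOR. Growing oocytes store large numbers of ribosomes, so ribosome supply is a long-standing subject of ovarian biology. The genes were taken by symbol, as Rpl or Rps followed by a number and at most 1 letter a or x, plus Rplp0, Rplp1, Rplp2 and Rpsa, with a mean of at least 5 CPM, the usual depth-scaled count of a gene. Of 36172 rows in the gene table, 77 symbols matched and 76 met the minimum, 46 of the large and 30 of the small subunit. The 1 left out was Rps3a (NCBI gene 20091), listed at 0 in every library; an exact 0 for a gene that every cell uses may reflect the counting, so it is not read as absence from the ovary. The members nearest to the minimum were Rpl38, Rpl36 and Rps28, at means of 169.0, 171.1 and 171.6 CPM, so no member lay close to it. All 76 passed the filter on low counts.

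RNA from ovaries of female C57BL/6 mice, an inbred strain, was sequenced in 5 libraries of 3-month-old, 5 of 6-month-old, 5 of 9-month-old and 4 of 12-month-old animals. The mice carried no named allele and no treatment is given, so age was the factor compared. The labels do not tie libraries to individual mice. The p-values therefore reflect variation among libraries alone, and part of it could be technical. In RNA from a whole organ, fewer cells of a type and less RNA per cell cannot be told apart. Library totals ran from 10851519 to 14302207 estimated counts and 15518 genes were tested.

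Transcripts of oocytes (Gdf9, Zp3) and theca (Cyp17a1) and the ovarian transcript Lhcgr were above 0 CPM in all 19 libraries. The lowest values were 1.44 CPM for Zp3 and 51.8 CPM for Lhcgr. The liver gene Alb was also above 0 CPM in every library, at 0.145 CPM or more, so presence alone does not identify the organ. Markers of several cell types moved with age. Of 12 oocyte markers, 11 were lower at 12 months than at 3 months and 12 were lower at 9 months (adjusted p under 0.05, edgeR), and the mean log2 CPM of the list ran from 3.57 to 4.14 in the libraries of 3 months, 2.62 to 3.70 at 6 months, 0.02 to 2.37 at 9 months and 1.15 to 2.44 at 12 months. Of 10 lymph node and lymphocyte markers, 8 were higher at 12 months and 9 at 9 months, and the list mean was 0.53 to 4.96 at 12 months and 0.72 to 4.40 at 9 months, against -0.12 to 0.48 at 3 months. The follicular dendritic cell gene Cr2 exceeded 5 CPM in 9 month replicates 1 and 2 and 12 month replicate 2, while Glycam1, of lymph node vessels, was at 0 in 4 of the 3 month libraries. Of 7 liver markers, 6 were higher at 9 months than at 3 months, with a list mean of 0.72 to 6.18 at 9 months against -0.81 to -0.20 at 3 months. At 12 against 3 months 3 of 4 theca markers were lower (median log2 change -1.16). Higher were 4 of 6 macrophage markers (0.67), 3 of 4 smooth muscle markers (0.90) and 2 of 5 markers of the neighbouring oviduct (0.51). The part of these cell types in the ribosomal protein values was not tested.

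Pyrimidine runs stood near the annotated start of most members looked up. Of the 76 members, 56 had an entry in the RefSeq promoter table (GRCm38.p6, another name for the files' build mm10). A run of at least 7 pyrimidines on the coding strand, from 10 bases before to 40 bases after the annotated start, stood in 39 of the 56 (69.6%), against 27.1% of 17435 other protein-coding genes. The longest run in that stretch had a median of 9 bases in the members and 5 in the other genes. The annotated first base was C or T in 48.2% of the members and in 23% of the others. From 250 bases before to 50 after the start, the letters CCGGAAG, a core of the sites of ETS factors, stood on either strand in 22 members (39.3%) and in 11.8% of the others. AAGATGGC, part of the YY1 site, stood on either strand in 8.93% of the members and 3.19% of the others, GGGCGG, of SP1 sites, in 58.9% and 46.2%, and TATAAA on the coding strand in 8.93% and 8.99%. A match is a description of letters, and the annotated start need not be the start used in the ovary. The windows printed here run 5′ to 3′ on the coding strand from 20 bases before to 30 bases after the start. They show the 4 members with an entry that passed a test, then the members with large (Rpl10a, Rps19) and small (Rpl10) differences at 6 months, and Rps6. Capitals mark the longest pyrimidine run where it has at least 7 bases within the window.
Rps12 (chr10:23787180-23787229, minus strand): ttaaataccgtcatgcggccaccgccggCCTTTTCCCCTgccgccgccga
Rps10 (chr17:27635215-27635264, minus strand): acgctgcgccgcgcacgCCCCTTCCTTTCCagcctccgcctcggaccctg
Rpl41 (chr10:128549139-128549188, minus strand): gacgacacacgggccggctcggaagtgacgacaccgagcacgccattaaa
Rpl26 (chr11:68901546-68901595, plus strand): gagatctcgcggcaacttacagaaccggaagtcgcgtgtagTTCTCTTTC
Rpl10a (chr17:28328451-28328500, plus strand): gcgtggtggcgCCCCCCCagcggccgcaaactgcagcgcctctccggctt
Rps19 (chr7:24884572-24884621, plus strand): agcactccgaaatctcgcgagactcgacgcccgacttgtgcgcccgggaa
Rpl10 (chrX:74270796-74270845, plus strand): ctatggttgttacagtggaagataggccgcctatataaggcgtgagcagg
Rps6 (chr4:86857338-86857387, minus strand): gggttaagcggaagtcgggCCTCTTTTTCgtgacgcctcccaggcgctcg
Rps12, Rps10 and Rpl26 thus hold a run of 11, 13 and 9 pyrimidines within the window, and Rpl41 has none of at least 7, although all of them passed a test. The 20 members without an entry include Rplp1, Rpl21 and Rpl32.

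Levels between genes were compared as CPM per kilobase of the gene's median-length coding transcript in GENCODE, averaged over the 19 libraries. In the large subunit the highest values were those of Rpl23 at 2089, Rpl13a at 1638, Rpl5 at 1550 and Rpl3 at 1440 CPM per kb. These ranks depend on the transcript models. Rpl23 has the shortest model of any member, 334 bases, and a mean of 697.8 CPM. Not scaled by length, Rpl4 (1339.6 CPM), Rpl5 (1293.0), Rplp0 (1210.8) and Rpl3 (1175.1) were the highest. Rpl3 lies near the site of peptide bond formation, and Rpl5 is one of the proteins that bind MDM2, the brake on p53, when ribosome assembly is disturbed. The lowest values per length were those of Rpl22 at 179.4, Rpl35 at 309.5 and Rpl37 at 328.9 CPM per kb. In the small subunit Rps24 led at 1234 CPM per kb, before Rps14 at 1198, the X-linked Rps4x at 1123 and Rps12 at 1054. At its lower end stood Rps28 at 449.2, Rps16 at 428.9 and Rps20 at 94.5 CPM per kb. The Rps20 value rests on an unusually long model of 3706 bases, against a median of 640.5 bases over the members and 1892 over all genes tested. The 3 stalk proteins, which recruit translation factors to the large subunit, differed in level: Rplp0, the scaffold, had 1418, Rplp1 1156 and Rplp2 710.9 CPM per kb. Although their proteins mostly enter the ribosome in equal number, the members' values per length thus ran from 94.5 to 2089 CPM per kb. Both ends rest on extreme models, the longest (Rps20) and the shortest (Rpl23) of the members. Means not scaled by length ran from 169.0 CPM for Rpl38 to 1339.6 CPM for Rpl4.

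**Figure D1:**
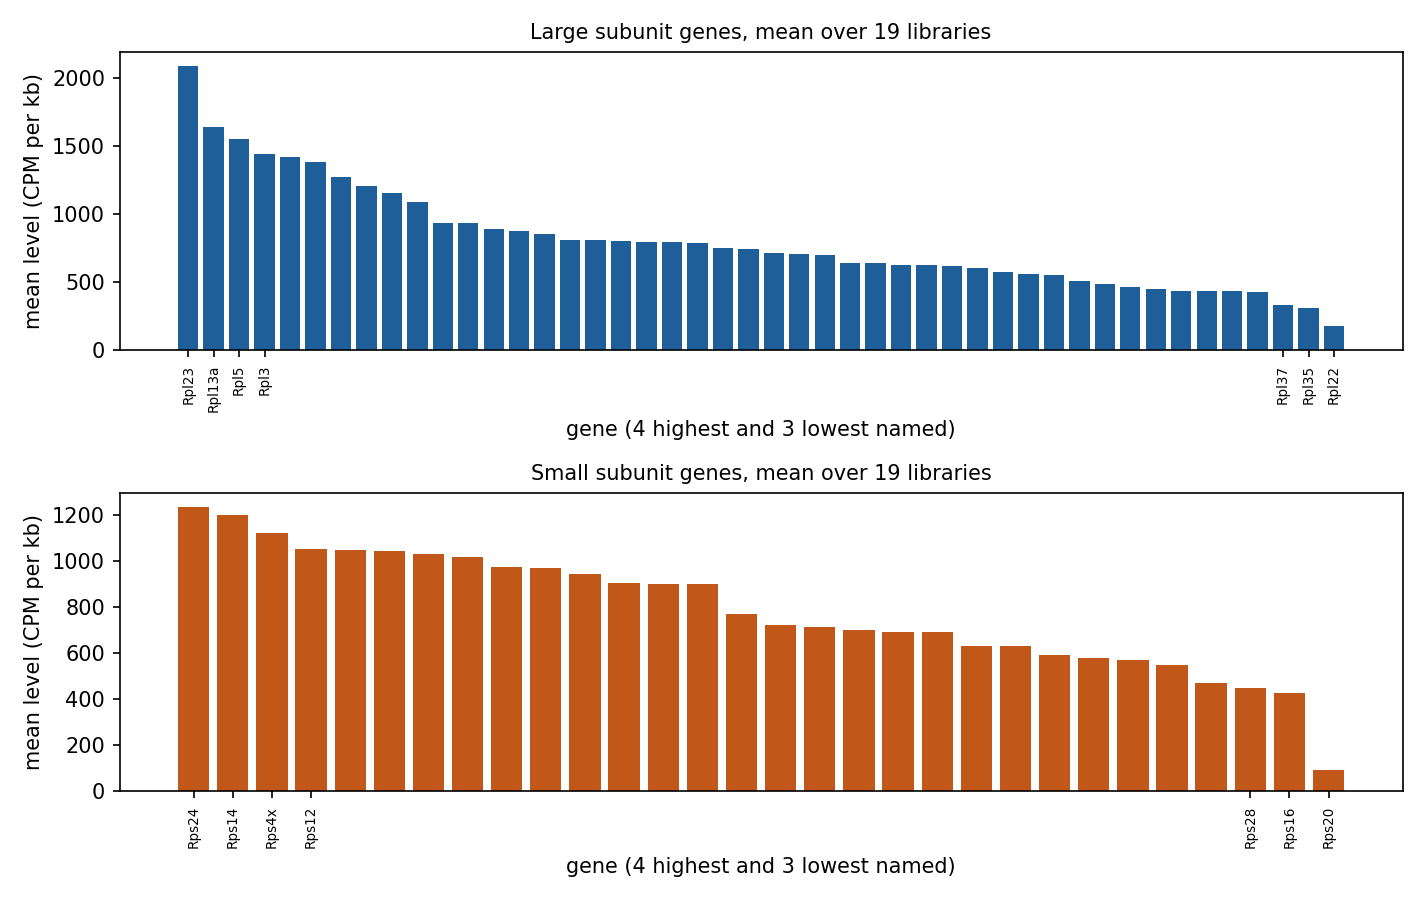
Mean level of each of the 76 ribosomal protein genes over 19 libraries, in CPM per kilobase of transcript, with large subunit genes in the upper panel and small subunit genes in the lower; the 4 highest and 3 lowest of each are named. Rpl23 (2089 CPM per kb) and Rps24 (1234 CPM per kb) lead their panels, and Rpl22 (179.4) and Rps20 (94.5) close them. The ranks depend on the transcript models, which have 334 bases for Rpl23 and 3706 for Rps20.

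The genes sat on 19 chromosomes, with 4 on the X, and varied little between libraries. The spread between libraries of one age had a median SD of 0.0836 on the log2 CPM scale over the members and 0.197 over all genes tested. Over all 19 libraries the coefficient of variation of CPM had a median of 8.17% in the members, against 16.2% in all genes. It was lowest for Rps4x (4.72%) and Rpl10 (5.27%), which joins the large subunit late, and highest for Rpl41 (13.8%), the smallest ribosomal protein. Members are more abundant than most genes, and the part of counting error in this comparison was not tested.

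The sum of all members' CPM per library shows how the family moved with age. It was 47464, 41595, 42451, 42852 and 46531 CPM in the 3 month libraries and 40323, 40082, 39425, 38087 and 39747 CPM in the 6 month libraries. It was 42257, 41295, 43986, 39659 and 44464 CPM at 9 months and 44224, 45156, 44137 and 49642 CPM at 12 months. All 6 month libraries lay below all 3 month libraries, the 9 month libraries overlapped both, and the 12 month libraries lay within or above the 3 month range. The family took 3.84% to 4.99% of all counts in a library. The age means were 44179 ± 2634 CPM at 3 months, 39533 ± 877 CPM at 6 months, 42332 ± 1969 CPM at 9 months and 45790 ± 2609 CPM at 12 months (SD, n = 5, 5, 5 and 4). Set against the mean of 3 months, that of 6 months differed by -10.5%, that of 9 months by -4.18% and that of 12 months by 3.65%.

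The subunits moved together. At 6 months the large subunit sum averaged 24207 ± 545 CPM, against 26957 ± 1616 CPM at 3 months, and the small subunit sum averaged 15326 ± 334 CPM, against 17221 ± 1022 CPM at 3 months (SD, n = 5 each). At 12 months they averaged 27930 ± 1649 and 17860 ± 963 CPM (SD, n = 4). The ratio of large to small subunit sums stayed between 1.551 and 1.602 in all 19 libraries. Its age means, 1.565 ± 0.011, 1.579 ± 0.005, 1.575 ± 0.017 and 1.564 ± 0.012 at 3, 6, 9 and 12 months (SD, n = 5, 5, 5 and 4), differed by less than the range between libraries of the 9 month group.

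**Figure D2:**
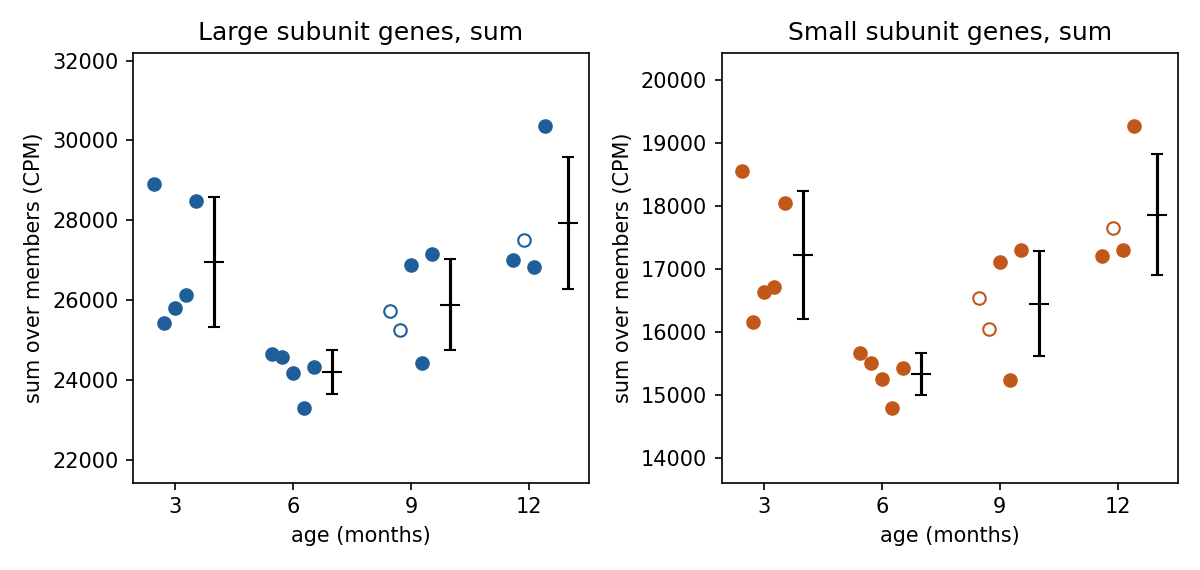
Sum of CPM over the 46 large subunit genes (left) and the 30 small subunit genes (right) against age in months, 1 point per library, with the mean and SD beside each group. Open points are the libraries with more than 5 CPM of Cr2, and the axes do not start at 0. The 5 libraries of 6 months lie below the 5 of 3 months in both panels.

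Gene by gene the order of the ages was much the same. The lowest of the 4 age means was at 6 months for 74 of 76 members and at 9 months for the other 2. The highest was at 12 months for 64 and at 3 months for 12. Of all genes tested, 21.5% had their lowest mean at 6 months and 30.3% their highest at 12 months. Single libraries stood apart: 12 month replicate 4 held the highest value of 56 members and 3 month replicate 1 of 13, while 6 month replicate 4 held the lowest value of 40. In 12 month replicate 4 and 3 month replicate 1 all 76 members were above their own mean, and in 6 month replicates 2, 3 and 4 none was.

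At 6 months every member was lower than at 3 months in estimate, but none passed the test. The log2 changes of 6 against 3 months ran from -0.24 to -0.06 with a median of -0.17, while over all genes tested the median was 0.00 and 50.2% were below 0. None of the members was above 0, against 49.8% of all genes. With edgeR's quasi-likelihood test and Benjamini-Hochberg adjustment over all genes, 0 of 76 members were called, against 0.0193% of all genes (0.0129% higher and 0.00644% lower). The smallest adjusted p of a member was 0.253. At an unadjusted p under 0.05, 64 of 76 members were lower and 0 higher, against 5.17% and 4.68% of all genes. For 41 members every 6 month library lay below every 3 month library, against 1.86% of all genes, and for 0 the reverse held, against 1.78%. DESeq2 called 5 members lower, Rpl26, Rpl35a, Rpl32, Rps3 and Rps7, against 0.172% of all genes with an adjusted p from it. limma-voom with sample weights called 24 members lower, against 0.67% of all genes. Members move together between libraries, so such counts are not counts of independent events. At this age 0 of the oocyte, lymph node, macrophage and liver markers were called, and the oocyte list had a median log2 change of -0.58, with all 12 below 0 and 2 at an unadjusted p under 0.05 (edgeR).

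The largest difference at 6 months was that of Rpl32, a large subunit protein. It had 351.6, 369.9, 366.9, 347.3 and 372.0 CPM at 6 months, against 473.1, 406.9, 390.0, 405.3 and 462.5 CPM at 3 months. The ages did not overlap, with a log2 change of -0.24 ± 0.06 (SE) and an adjusted p of 0.253 (edgeR). Rps19, mutated in human Diamond-Blackfan anaemia, had 417.5, 405.5, 382.4, 387.5 and 422.3 CPM at 6 months, against 512.4, 434.1, 460.3, 454.6 and 495.5 CPM at 3 months. These too did not overlap, with a log2 change of -0.23 ± 0.06 (SE; adjusted p = 0.317, edgeR). Rpl10a stood between them at -0.23 ± 0.06 (SE; adjusted p = 0.307, edgeR). At the other end Rpl10 had 899.8, 861.0, 850.6, 815.3 and 843.8 CPM at 6 months, against 942.2, 855.8, 859.9, 870.7 and 922.0 CPM at 3 months. Its ages overlapped, and its log2 change was -0.06 ± 0.04 (SE; adjusted p = 0.669, edgeR). Rpl4 and Rpl23 were the next smallest, with log2 changes of -0.09 and -0.10.

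Among the well-studied members, Rps19 and Rpl10 lay near the ends of the family's range at 6 months, as given above. The others named here lay between these 2. The log2 change of 6 against 3 months was -0.14 ± 0.05 for Rps6, the main substrate of the S6 kinases, -0.16 ± 0.05 for Rpl5 and -0.17 ± 0.06 for Rpl11, which binds MDM2 together with Rpl5 (SE). It was -0.13 ± 0.05 for Rpsa, also known as a laminin receptor, and -0.17 ± 0.06 for Rplp0 (SE). For Rps6 and Rplp0 the libraries of the ages overlapped, and for Rpl5, Rpl11 and Rpsa they did not. Rps27a, which is made as a fusion with ubiquitin, had a log2 change of -0.20 ± 0.06 (SE; adjusted p = 0.339, edgeR) with no overlap. The unadjusted p of Rps27, at a log2 change of -0.14 ± 0.07 (SE), was 0.0717. The log2 changes of Rpl3, Rpl22, Rpl39, Rplp2 and Rps4x, lay between -0.17 and -0.11.

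Transcript length and base composition were set beside this shift, because members are short. Over all genes with a known length the log2 change at 6 months had a Spearman correlation of 0.15 with length and 0.02 with GC content, across genes that are not independent. With length and GC content regressed out in each library, the members' median was -0.15, all 76 stayed below 0, and 60 were lower at an unadjusted p under 0.05, against 5.54% of all genes. Other TOP mRNAs and translation factors were also mostly below 0 at 6 months, 16 of 17 with a median log2 change of -0.13. Of these 0 were called. At an unadjusted p under 0.05 without the correction, 10 were lower and 0 higher, against 5.17% and 4.68% of all genes (edgeR). For 6 of them every 6 month library lay below every 3 month library, against 1.86% of all genes. Mitochondrial ribosomal proteins, which build the separate ribosome of mitochondria, were also mostly below 0 at 6 months, 74 of 76 with a median log2 change of -0.12. Of these 0 were called, and 11 were lower and 0 higher at an unadjusted p under 0.05, beside the same shares of all genes (edgeR).

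**Figure D3:**
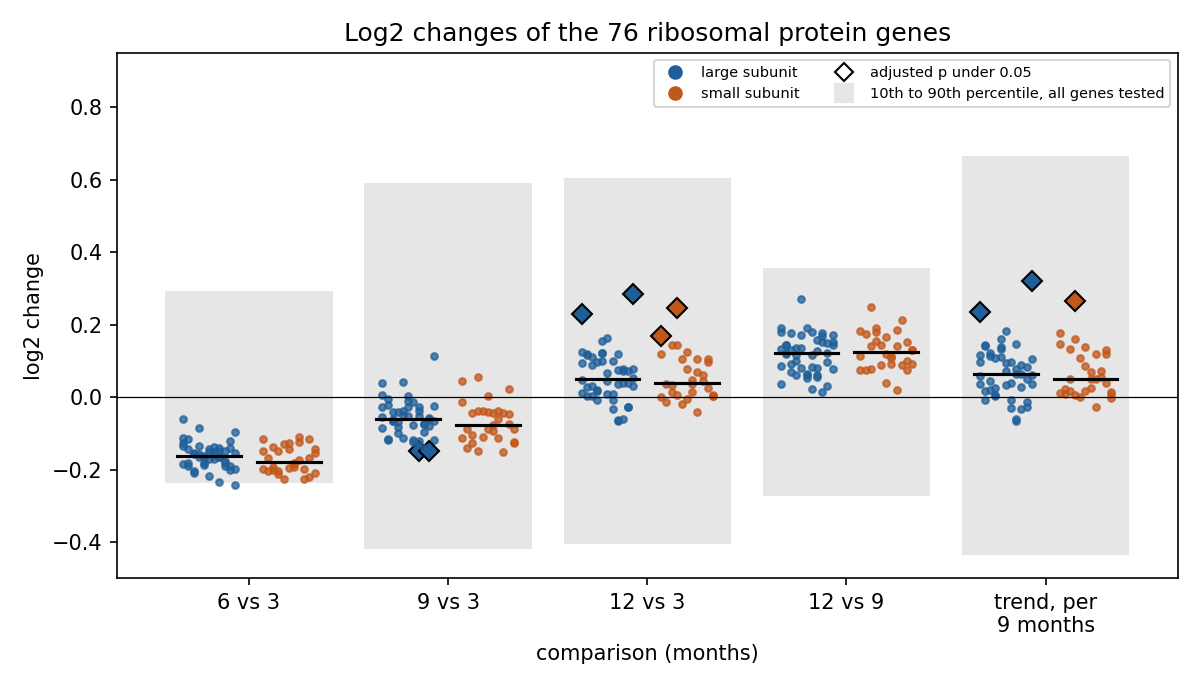
Log2 change of each of the 76 ribosomal protein genes in 5 comparisons, with large subunit genes to the left and small subunit genes to the right of each position. Black lines are subunit medians, diamonds are members with an adjusted p under 0.05 (edgeR), and grey boxes span the 10th to the 90th percentile of all genes tested. All points lie below 0 at 6 against 3 months and above 0 at 12 against 9 months.

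At 9 months the family lay between its levels of 3 and 6 months, and 2 large subunit genes fell. The log2 changes of 9 against 3 months had a median of -0.06 and a range of -0.15 to 0.11, with 67 of 76 below 0 and 9 above. Over all genes the median was 0.01, with 48% below 0 and 52% above. Lower calls numbered 2 of 76 members, against 13.6% of all genes tested, and higher calls 0, against 11.3%, where 25% of all genes were called in either direction (edgeR). At an unadjusted p under 0.05, 13 members were lower and 0 higher, against 19.1% and 18.5% of all genes. The lowest log2 change was that of Rps28, a small subunit protein, at -0.15 ± 0.08 (SE; adjusted p = 0.182, edgeR). The highest were those of Rpl41, Rps12 and Rps2, at 0.11, 0.06 and 0.05, none past the threshold.

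Rpl26, a large subunit protein reported in human cells to bind p53 mRNA (gene 19941, chromosome 11, 68901566 to 68904534, 4 exons), had 485.4, 458.1, 486.0, 443.9 and 493.1 CPM at 9 months. At 3 months it had 563.9, 496.5, 512.3, 508.2 and 543.2 CPM, so that every 9 month library lay below every 3 month library. Its log2 change was -0.15 ± 0.05 (SE; adjusted p = 0.0231, edgeR). It was the 1 member of 76 with every 9 month library below, against 9.42% of all genes, and 0 members had every library above, against 5.52%. Rpl21, also of the large subunit (gene 19933, chromosome 5, 146832890 to 146837032, 6 exons), had 677.7, 621.7, 647.1, 591.9 and 688.3 CPM at 9 months, against 762.1, 672.7, 705.8, 699.0 and 736.3 CPM at 3 months. Its ages overlapped, and its log2 change was -0.15 ± 0.05 (SE; adjusted p = 0.0409, edgeR). Without the Cr2 libraries, which leaves 3 libraries of 9 months, the log2 changes were -0.13 for Rpl26 and -0.14 for Rpl21 and neither passed (adjusted p = 0.134 and 0.137, edgeR). Rpl26 lost its call without any of 5 single libraries, with adjusted p of up to 0.109, namely 3 month replicates 1, 3 and 5 and 9 month replicates 2 and 4. Rpl21 lost its call without any of 12 single libraries, those 5 among them, with adjusted p of up to 0.16. Without 9 month replicate 5, 4 members were called lower. Over the fits with 1 library left out, 1511 to 2271 of all genes were called lower. With length and GC content regressed out, 19 members were called lower, among them both of these, Rps15, Rpl8, Rpl5, Rpl11 and Rps19, and the family's median was -0.11. In the same fit 15% of all genes were called lower.

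At 12 months 4 members rose relative to 3 months and none fell. They were Rps12, Rplp1, Rpl41 and Rps10, which makes 4 of 76 higher against 10.9% of all genes tested and 0 lower against 11.5%, where 22.4% of all genes were called in either direction (edgeR). At an unadjusted p under 0.05, 9 members were higher and 0 lower, against 18.5% and 17.6% of all genes. The median log2 change of the family was 0.05, its range -0.07 to 0.29, and 64 of 76 members were above 0 and 12 below. Over all genes the median was 0.02, with 53% above 0 and 47% below. For no member did the libraries of 12 and 3 months stand fully apart, against 6.72% of all genes with every library above and 9.75% with every library below. Each subunit held 2 of the calls, and their medians were 0.05 for the large and 0.04 for the small subunit.

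Rps12 (gene 20042, chromosome 10, 23785183 to 23787383, 7 exons) is a protein of the small subunit's head region. It had 584.1, 546.2, 630.7 and 631.2 CPM at 12 months, against 559.0, 477.9, 455.8, 494.3 and 535.2 CPM at 3 months. The 12 month replicate 2 lay within the 3 month range and the other 3 above it, with a log2 change of 0.25 ± 0.06 (SE; adjusted p = 0.0102, edgeR). Rplp1, an acidic stalk protein (gene 56040, chromosome 9, 61913283 to 61914510, 3 exons), had 601.9, 630.5, 691.5 and 717.4 CPM at 12 months, against 607.2, 544.0, 530.0, 541.1 and 594.3 CPM at 3 months. Here 1 library of 12 months lay within the 3 month range, with a log2 change of 0.23 ± 0.06 (SE; adjusted p = 0.0107, edgeR). Its stalk partners did not pass, with log2 changes of 0.12 ± 0.06 for Rplp0 (adjusted p = 0.154, edgeR) and 0.07 ± 0.06 for Rplp2 (adjusted p = 0.401, edgeR).

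Rpl41 (gene 67945, chromosome 10, 128548110 to 128549168, 3 exons) had the largest change of the family. Its levels were 510.2, 498.1, 581.6 and 636.1 CPM at 12 months, against 527.3, 436.3, 406.1, 448.2 and 466.0 CPM at 3 months. At 12 months 2 libraries lay within the 3 month range, and the log2 change was 0.29 ± 0.08 (SE; adjusted p = 0.0151, edgeR). Rps10, a small subunit protein mutated in some human Diamond-Blackfan anaemia (gene 67097, chromosome 17, 27630415 to 27635244, 6 exons), had 391.2, 416.8, 441.7 and 465.3 CPM at 12 months. At 3 months it had 405.2, 373.1, 353.1, 381.7 and 393.4 CPM, which overlaps, and its log2 change was 0.17 ± 0.06 (SE; adjusted p = 0.0434, edgeR). The lowest log2 changes belonged to Rpl21, Rpl30 and Rpl9, at -0.07, -0.06 and -0.06, with adjusted p of 0.4, 0.46 and 0.491 (edgeR). Rpsa, Rps15, Rpl36 and Rps21 had an unadjusted p under 0.05 and did not pass after adjustment (adjusted p of 0.0881 to 0.136, edgeR).

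Other well-known members differed little between 12 and 3 months. The log2 change was 0.00 ± 0.05 for Rps6, -0.03 ± 0.06 for Rpl5 and 0.02 ± 0.06 for Rpl11 (SE). It was -0.02 ± 0.07 for Rps19, -0.04 ± 0.05 for Rps4x and 0.10 ± 0.05 for Rpl10 (SE). Rpl3, Rpl22, Rpl39, Rps27 and Rps27a lay between -0.01 and 0.04. None of these passed, with adjusted p of 0.153 to 0.976 (edgeR).

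The calls at 12 months depended on the treatment of length and GC content, and those of Rpl41 and Rps10 also on single libraries. Rps12 and Rplp1 stayed past the threshold whichever of the 19 libraries was left out. With both regressed out, none of the 4 stayed past the threshold (adjusted p = 0.0707 for Rps12, 0.262 for Rplp1, 0.125 for Rpl41 and 0.459 for Rps10). The family's median was -0.02 with 46 of 76 below 0. Rps20 alone was called higher, against 7.45% of all genes. The correction used its unusually long model of 3706 bases and 41.3% GC, against member medians of 640.5 bases and 52.5%. Without the correction its log2 change was 0.10 (adjusted p = 0.199, edgeR). Across the 76 members the log2 change at 12 months had a Spearman correlation of 0.38 with GC content and -0.24 with length, and across all genes with a known length it was 0.25 and -0.09. The library with the highest family sum, 12 month replicate 4, held 84.2 CPM of the liver enzyme Bhmt but 0.45 CPM of the liver gene Alb. Its liver list mean of 0.25 lay within the range of the 12 month libraries, -0.58 to 0.71, and above that of 3 months. Without 12 month replicate 4 the median was 0.00, 38 members were below 0 and 2 were called, with Rpl41 at an adjusted p of 0.0638 and Rps10 at 0.165 (edgeR). Without 12 month replicate 3 the count was also 2, with Rpl41 at 0.0524 and Rps10 at 0.116 (edgeR). Rps10 lost its call in 22 of 32 alternatives, 14 of them with a single library left out. Without the Cr2 libraries Rps12, Rpl41 and Rplp1 stayed past the threshold (adjusted p = 0.00697, 0.00754 and 0.0143, edgeR).

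**Figure D4:**
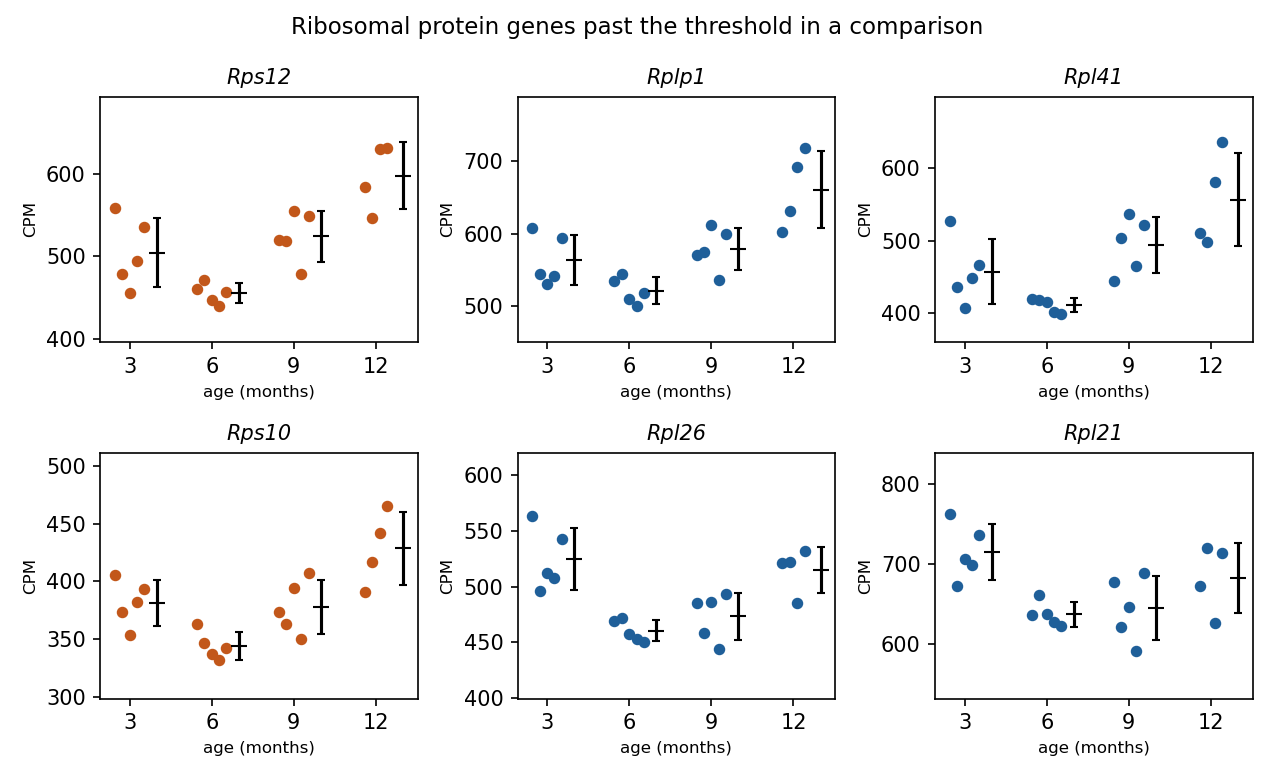
CPM of the 6 ribosomal protein genes past the threshold in a comparison, against age in months, 1 point per library, with the mean and SD beside each group. The axes do not start at 0. For Rps12, Rplp1, Rpl41 and Rps10 the 12 month mean is the highest of the 4 ages, and for Rpl26 and Rpl21 the 3 month mean is.

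At 12 against 9 months every member was higher in estimate, and again none passed. The log2 changes of 12 against 9 months ran from 0.01 to 0.27 with a median of 0.12. Of the members 0 were below 0, while 54.9% of all genes were above 0 and 45.1% below. edgeR called 0 of 76 members and 0% of all genes. At an unadjusted p under 0.05, 38 members were higher and 0 lower, against 7.2% and 6.66% of all genes. Every 12 month library lay above every 9 month library for 5 members, Rps15, Rpl13, Rpl38, Rps15a and Rps6, against 1.15% of all genes, and for 0 the reverse held, against 1.11%. Rps15 had 467.5, 481.8, 528.9 and 580.4 CPM at 12 months, against 446.4, 413.0, 448.5, 401.7 and 457.2 CPM at 9 months, a log2 change of 0.25 ± 0.06 (SE; adjusted p = 0.092, edgeR). DESeq2 called 2 members higher, Rps15 among them (adjusted p = 0.0185), against 0.49% of all genes with an adjusted p from it, and limma-voom called 0. The oocyte and lymph node list means overlapped between these ages, as given above, while the liver list mean was -0.58 to 0.71 at 12 months against 0.72 to 6.18 at 9 months. All 12 oocyte, all 9 granulosa and all 5 oviduct markers were above 0, with median log2 changes of 0.29, 0.49 and 0.30. At an unadjusted p under 0.05, 2 granulosa, 1 oviduct and 0 oocyte markers were higher, and 6 of 7 liver markers were lower (edgeR). The part of these cell types in the members' changes was not tested. Rps28 had a log2 change of 0.21 ± 0.09 (SE; adjusted p = 0.293, edgeR), and Rpl9, Rps4x and Rpl34 were lowest at 0.01, 0.02 and 0.02.

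Along age in months, 3 members rose and none fell. Higher calls were 3 of 76 members against 14.7% of all genes, and lower calls 0 against 14.8%, where 29.5% of all genes were called in either direction (edgeR). At an unadjusted p under 0.05, 7 members were higher and 0 lower, against 21.3% and 19.6%. The change over 9 months of the linear trend was 0.32 ± 0.09 on the log2 scale for Rpl41 (adjusted p = 0.0128), 0.27 ± 0.08 for Rps12 (adjusted p = 0.0163) and 0.24 ± 0.07 for Rplp1 (adjusted p = 0.0174), with SE and edgeR's test. The family's median was 0.06, with 66 of 76 above 0, against 53.7% of all genes. Rpl21, Rpl30 and Rpl9 were lowest, at -0.07, -0.06 and -0.03. The trend uses the same libraries as the comparisons above, and the comparisons with 3 months share their 3 month libraries, so these results are not separate evidence. With length and GC content regressed out the median was -0.02 and Rps20 alone was called higher, against 10.8% of all genes. This again used its unusually long model, and without the correction Rps20 did not pass (adjusted p = 0.228, edgeR). Without 12 month replicate 4 the count of higher members was 1, and without 3 month replicate 1 it was 7. With single libraries left out, the number of all genes called higher moved too, from 1897 to 2391.

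Genes that share reads or function with the family were read beside it. Fau, which encodes the small subunit protein RPS30 fused to a ubiquitin-like protein, falls outside the symbol rule. It had 298.1, 316.5, 316.3 and 368.3 CPM at 12 months, against 286.9, 266.5, 264.9, 282.7 and 301.0 CPM at 3 months, and rose with a log2 change of 0.21 ± 0.06 (SE; adjusted p = 0.0194, edgeR). Of its 12 month libraries 1 lay within the 3 month range. Its call was lost with length and GC content regressed out (adjusted p = 0.462), without 12 month replicate 4 (0.0871) and without 3 month replicate 3 (0.0558). Gnb2l1, the small subunit scaffold RACK1, had a log2 change of 0.05 ± 0.06 (SE; adjusted p = 0.525, edgeR).

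Of 8 paralogs and retrogenes, 6 were tested and 1 fell at 12 months. Rpl7l1, a paralog of Rpl7, had 122.5, 124.7, 120.6 and 112.5 CPM at 12 months, against 147.1, 131.3, 134.0, 138.7 and 136.3 CPM at 3 months, with no overlap. Its log2 change was -0.20 ± 0.07 at 12 months (SE; adjusted p = 0.0466, edgeR) and -0.28 ± 0.06 at 9 months (SE; adjusted p = 0.00408, edgeR). The 12 month call is at the edge of the threshold and was lost when any of 11 single libraries was left out. Rpl39l, a paralog of Rpl39 known from male germ cells in mice, was near the limit of detection at 0.16, 0.15, 0.22 and 0.45 CPM at 12 months, against 1.13, 0.52, 1.08, 0.58 and 1.02 CPM at 3 months. It fell along the trend (log2 change over 9 months -1.63 ± 0.59, SE, adjusted p = 0.0431, edgeR) and did not pass at 12 against 3 months (adjusted p = 0.066, edgeR). Rpl22l1, Rpl36al, Rps27l and Rps4y2 (Rps4l in RefSeq) did not pass at 12 months, with log2 changes of 0.03 ± 0.08, 0.07 ± 0.06, -0.04 ± 0.08 and 0.17 ± 0.18 (SE). Of 258 rows with the symbol of a ribosomal protein pseudogene 4 were tested and 0 called at 12 against 3 months (edgeR; 0 in either direction at an unadjusted p under 0.05). How reads shared between members and near-identical copies were counted is not given in the sources used here, so the split between them is uncertain.

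Genes for the assembly of ribosomes fell at both later ages. Of 37 ribosome biogenesis genes, 18 fell and 0 rose at 12 months against 3 months, and 24 fell and 0 rose at 9 months, with median log2 changes of -0.29 and -0.35 (edgeR). Among all genes 11.5% were called lower at 12 months and 13.6% at 9 months. The difference between this list and the ribosomal protein genes was not tested as such. Nop58, a core protein of the particles that methylate ribosomal RNA, had 116.4, 122.1, 110.2 and 116.0 CPM at 12 months, against 181.4, 145.4, 164.8, 154.7 and 185.3 CPM at 3 months. The ages did not overlap, with a log2 change of -0.52 ± 0.10 (SE; adjusted p = 0.00207, edgeR). Mdn1, an ATPase that remodels the large subunit precursor, had 60.7, 75.8, 70.0 and 68.7 CPM at 12 months, against 90.7, 103.7, 108.6, 128.6 and 120.6 CPM at 3 months. It fell by 0.68 on the log2 scale (SE 0.13, adjusted p = 0.00221, edgeR), without overlap. Nop14, of small subunit assembly, and Nmd3, the export adaptor of the large subunit, fell by 0.40 and 0.42 (adjusted p = 0.00167 and 0.00327, edgeR). The 12 month count was also 18 with length and GC content regressed out and without the Cr2 libraries. At 6 months 0 of the 37 were called, and the median was -0.11. At an unadjusted p under 0.05, 4 were lower and 0 higher at 6 months, against 5.17% and 4.68% of all genes (edgeR). Oocyte transcripts fell at the same ages, as given above, and their part in these counts was not tested.

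RNA polymerase I, which transcribes the ribosomal RNA genes, had calls in 1 direction. Of 14 genes 3 (21.4%) fell at 12 months (Polr1a by 0.37, Twistnb by 0.39 and Polr1b by 0.28 on the log2 scale) and 7 (50%) at 9 months, with 0 higher at either age (edgeR). The 12 month count was 1 without 3 month replicate 5 or 12 month replicate 3. The 9 month count was 2 without 3 month replicate 5, without 9 month replicate 2 or without the Cr2 libraries, and 4 without 9 month replicate 4 or any other single 3 month library. Among 16 regulators of the MTOR and MYC pathways 2 (12.5%) fell at 12 months, close to the 11.5% of all genes. Mycn had a log2 change of -0.94 ± 0.17 (SE; adjusted p = 0.0018, edgeR) and Mycl1 of -0.81 ± 0.21 (SE; adjusted p = 0.011, edgeR). Rps6kb1, the S6 kinase, and Max, the partner of MYC proteins, did not pass (adjusted p = 0.102 and 0.13, edgeR).

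Of 17 other TOP mRNAs and translation factors, 1 rose and 2 fell at 12 months. That is 17.6% called in either direction, against 22.4% of all genes (edgeR). Eef2, the elongation factor of translocation, rose with a log2 change of 0.21 ± 0.07 (SE; adjusted p = 0.041, edgeR), while the histone chaperone Nap1l1 fell by 0.38 (adjusted p = 0.00358, edgeR) and nucleophosmin, Npm1, by 0.31 (adjusted p = 0.00713, edgeR). The list's median was 0.01. Of 76 mitochondrial ribosomal proteins 1 rose (Mrps26, 0.32 ± 0.10, SE) and 2 fell (Mrpl3 by 0.26 and Mrpl47 by 0.37), with a median of 0.00 (edgeR). These calls were 3.95% of the list, also below the share of all genes. Of 9 host genes of snoRNAs, which guide the modification of ribosomal RNA, 0 were called at 12 months (edgeR; 0 in either direction at an unadjusted p under 0.05), with a median of 0.06.

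**Figure D5:**
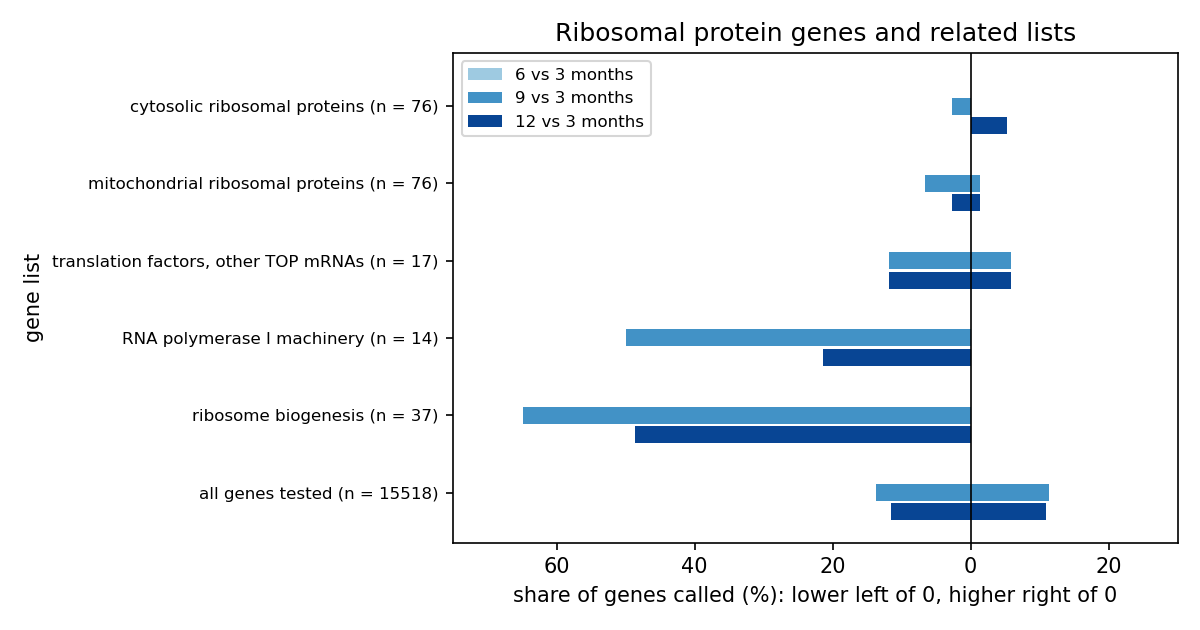
Share of each gene list past an adjusted p of 0.05 (edgeR), in percent, for 6, 9 and 12 months against 3 months; bars left of 0 are lower and bars right of 0 are higher than at 3 months. Of the cytosolic ribosomal proteins 2.63% were lower at 9 months, against 13.6% of all genes tested. At 12 months 5.26% of them were higher, against 10.9% of all genes. Of the ribosome biogenesis genes 64.9% were lower at 9 months and 48.6% at 12 months, against 13.6% and 11.5% of all genes. The difference between these lists was not tested as such.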

How the data were processed

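The libraries were made with a directional kit, per the labels' protocols. Which aligner and counter the authors ran, and whether strand was used, is not given in the sources used here. Gene rows are RefSeq models per the file headers, on the mouse build mm10 according to the submitters' processing notes. The authors deposited estimated counts that need not be whole, and these were rounded before testing. They also deposited log2 values, normalized by a method not stated in the files, in which each gene has a 3 month median of 0; these served as an alternative. Of the columns in each file, 1 matched no sample and was not used. Groups came from the age labels.

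Counts were tested with edgeR 4.0.16 in R 4.3.3 (robust quasi-likelihood, TMM factors of 0.982 to 1.013, a mean per age over 19 libraries), after a filter with a minimum count of 10 and a minimum total of 15. Benjamini-Hochberg adjustment ran over 15518 genes with a threshold of 0.05. CPM are TMM-scaled, log2 CPM have a prior count of 2, and SE come from the log2 change and the F statistic. Libraries of one age differed by a chi-square per degree of freedom of 5.11 to 38.8, so none was counted as a repeated sequencing of another. Separate libraries made from the same mouse could also differ this way, so the check does not show that each library is a different mouse. Length and GC content were available for 95.7% of tested genes. The steps were tested on simulated data. The members and lists were chosen with earlier results of these data known. Genes named are those past a threshold, the 3 highest and 3 lowest changes per comparison, the 4 most and 3 least abundant per subunit, a fixed set of well-known members, all tested paralogs and up to 4 per other list by smallest p. Alternatives used DESeq2 1.42.0 and limma 3.58.1, other scalings and filters, a length and GC correction and left-out libraries. Other genes named beside a count were chosen after their values were seen. Some genes that this rule names are not reported here.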

Additional observations from a re-analysis of the deposited data

How the results depend on the processing

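No paired analysis was possible because the labels give no replicate numbers shared between ages.

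The direction of the family's median held at 6 months (-0.184 to -0.139 on the log2 scale with single libraries left out) and at 12 against 9 months (0.081 to 0.147). The 6 month count of lower members was 0 with edgeR, 5 with DESeq2 and 24 with limma-voom and sample weights, and the count higher at 12 against 9 months was 0 with edgeR and 2 with DESeq2. The count of members higher at 12 months was 4 in the main fit, where 10.9% of all genes were higher. It was 1 with the length and GC correction, where 7.45% of all genes were higher. That 1 was Rps20, and none of the 4 kept its call. The count was 0 with only the ages compared, 0 at an adjusted p under 0.01, and 2 to 6 with single libraries left out. The count of members lower at 9 months was 2 in the main fit, where 13.6% of all genes were lower. It was 4 with limma-voom and 1 without a filter, for which the shares of all genes are not reported here. With the length and GC correction it was 19, where 15% of all genes were lower. The count was 0 with only the ages compared, 0 without the Cr2 libraries and 0 at an adjusted p under 0.01. With single libraries left out it was 0 to 4. The count rising along the trend was 3 in the main fit, where 14.7% of all genes rose. It was 1 with limma-voom, for which the share of all genes is not reported here. With the length and GC correction it was also 1, Rps20, which is not among the 3, and 10.8% of all genes rose. The count was 0 at an adjusted p under 0.01, and 1 to 7 with single libraries left out. The trend's median became -0.02 with the correction. With single libraries left out, the counts over all genes moved too. They ran from 1086 to 1855 higher at 12 months, 1511 to 2271 lower at 9 months and 1897 to 2391 higher along the trend. The cause of the shifts in the member counts was not tested. The 18 biogenesis genes lower at 12 months became 12 to 20 under the other alternatives and 15 to 21 with single libraries left out.

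Changes near 0 turned sign. With the correction, at 12 against 3 months, Gnb2l1 was at -0.002, Rpl36al at -0.028, Rps4y2 at -0.002 and Rps27l at 0.015; at 9 against 3 months Rps12 was at -0.011 and Rps2 at -0.016; and at 12 against 9 months Rpl34 was at -0.015. Without the Cr2 libraries, at 12 against 9 months, Rpl9 was at -0.045 and Rpl34 at -0.027. With single libraries left out, the changes at 12 against 3 months ran from -0.055 to 0.074 for Rpl22l1, -0.036 to 0.244 for Rps4y2, -0.094 to 0.012 for Rps27l and -0.004 to 0.323 for Rps19-ps3. At 12 against 9 months they ran from -0.025 to 0.057 for Rpl9, -0.021 to 0.036 for Rps4x and -0.016 to 0.059 for Rpl34, and along the trend from -0.057 to 0.011 for Rpl9.

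At library totals of 10851519 to 14302207 counts the least abundant member averaged 169.0 CPM. Why few members passed was not tested.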
